A study of Rattus norvegicus with 6 samples.

Results

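The cluster of miR-221 and miR-222 was followed through its 4 mature miRNAs, rno-miR-221-3p, rno-miR-221-5p, rno-miR-222-3p and rno-miR-222-5p. They are both arms of the miR-221 and miR-222 hairpins and were taken by name from the 763 mature rat miRNAs counted in the series. The counts came from small RNA libraries of plasma exosomes, the small membrane vesicles pelleted from plasma by ultracentrifugation, with 3 libraries from control rats (C-exo) and 3 from rats in the late phase after remote ischemic pre-conditioning (RIPC, R-exo). All rats were male Sprague-Dawley rats of 7 to 8 weeks. RIPC rats had 4 cycles of hind limb ischemia (5 min) and reperfusion (5 min) with rubber bands under anesthesia, control rats had none, and blood was drawn after 48 h in both groups. The labels do not say whether each library came from a single rat, so the p-values concern differences between libraries, not between known single rats. In edgeR the spread between libraries is estimated partly from all tested miRNAs together. The table counts miRNAs alone and therefore holds no marker of the vesicles themselves, and fewer vesicles of a cell type cannot be told apart from less miRNA per vesicle.

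miR-221 and miR-222 are transcribed together as a single primary RNA, from which each hairpin is cut out and split into a 3p and a 5p strand. The 3p strands are the ones mostly loaded into Argonaute, and they are known for repressing the cell cycle inhibitor p27Kip1 (Cdkn1b) and the receptor kinase Kit. They are abundant in endothelial and smooth muscle cells of the vessel wall, where they restrain endothelial migration and favour smooth muscle proliferation, and they decline as red cells mature.

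The mature sequences show what the members share and what sets them apart in a count table. They are given 5′ to 3′ from RefSeq, with the seed (bases 2 to 8, which pair with targets) in capitals.
rno-miR-221-3p: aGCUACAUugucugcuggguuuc
rno-miR-222-3p: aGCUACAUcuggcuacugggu
rno-miR-221-5p: aCCUGGCAuacaauguagauuuc
rno-miR-222-5p: gGCUCAGUagccaguguagau
rno-miR-221-3p and rno-miR-222-3p had the same seed, and no other of the 693 mature rat miRNAs in the RefSeq table had it. Behind the first 8 bases they diverged. Over the 21 bases compared from the 5′ end 10 differed, and the first of these differences was U9C (miR-221 base, position, miR-222 base). The nearest mature rat miRNA to each 3p arm was the other 3p arm, at an edit distance of 6. The 5p arms had different seeds from each other, and no other listed miRNA carried either of them. Their nearest relatives lay 9 edits away for rno-miR-221-5p and 8 edits away for rno-miR-222-5p.

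The hairpins are shown with the mature arms in capitals, because the arms of a hairpin leave it in equal number and the counts of the arms are compared below. Both lie on the plus strand of chromosome X in the rat assembly GRCr8, Mir222 at chrX:6022621-6022723 and Mir221 at chrX:6023182-6023290, with 458 bases and no annotated gene between them. Both lie inside the spans of 2 long non-coding RNA genes, LOC120099382 and LOC120099384. The deposited counts carry no coordinates, and the submitters' processing notes name another build, rn6.
Mir222 hairpin: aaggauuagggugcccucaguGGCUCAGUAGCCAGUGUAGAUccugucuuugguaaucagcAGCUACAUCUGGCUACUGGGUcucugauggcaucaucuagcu
Mir221 hairpin: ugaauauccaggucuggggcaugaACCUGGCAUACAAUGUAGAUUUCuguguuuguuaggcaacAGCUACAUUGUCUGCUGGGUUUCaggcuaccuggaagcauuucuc

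The libraries held between 5484209 and 7531737 counts, so the smallest amount taken as measurable, 3 counts, was between 0.398 and 0.547 CPM before TMM scaling. Levels are given as CPM, the count scaled to library size after TMM normalization. A read spans a whole mature miRNA, so levels were not divided by length, although ligation of adaptors can differ between sequences. C-exo replicate 3 stood apart within its group. Of the 404 miRNAs that passed the filter on low counts, 111 had C-exo replicates 1 and 2 both above the other 4 libraries, and another 123 had both below them. Fold changes, ratios, calls and group overlaps of the members that rest on C-exo replicate 3 are therefore given with and without it. So are the shares of miRNAs called or free of overlap. Fold changes of other named miRNAs, list medians, ranks of spread, likeness of profile and ranks of arm ratios use all 6 libraries.

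rno-miR-221-3p, the main strand of miR-221, was the most abundant member in every library and the one that varied most among the 3 that could be tested. In C-exo replicates 1, 2 and 3 its level was 1349, 897 and 341 CPM, and the R-exo replicates had 675, 385 and 440 CPM in this order. C-exo replicates 1 and 2 were the highest of the 6 libraries and C-exo replicate 3 was the lowest, so the groups overlapped. C-exo averaged 862 ± 505 CPM (SD, n = 3) and R-exo 500 ± 154 CPM (SD, n = 3). The log2 fold change of R-exo over C-exo was -0.79 (standard error 0.55, 95% interval -2.03 to 0.46, adjusted p = 0.51, Benjamini-Hochberg over 404 miRNAs, edgeR's quasi-likelihood test). The exact two-sided permutation test of its log2 CPM gave p = 0.4, where 0.1 is the smallest that 3 libraries against 3 allow.

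The difference of rno-miR-221-3p depended on C-exo replicate 3. Without that library it changed by -1.16 on the log2 scale (SE 0.42, adjusted p = 0.049 in edgeR's quasi-likelihood test), and 31.3% of the 422 miRNAs then tested passed the same threshold. Without C-exo replicate 1 it was -0.42 (standard error 0.57). C-exo replicate 3 was the lowest of the 6 libraries for 63 of the 404 tested miRNAs, and for 36 of them C-exo replicates 1 and 2 were also both above the rest, as they were for rno-miR-221-3p.

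rno-miR-222-3p, which carries the same seed, was nearly level across the libraries. The C-exo replicates 1, 2 and 3 had 338, 278 and 301 CPM. In R-exo the values were 258, 296 and 239 CPM in the same order. The highest and lowest libraries differed by 1.42 times, against 3.96 times for rno-miR-221-3p, and the groups overlapped. C-exo averaged 306 ± 30.1 CPM (SD, n = 3) and R-exo 264 ± 29.3 CPM (SD, n = 3). This gave a log2 fold change of -0.21 (SE 0.39, 95% interval -1.09 to 0.67, adjusted p = 0.81 by the same edgeR test). The interval leaves both directions possible, and it rests partly on the spread of all 404 tested miRNAs, not on that of this member alone. The exact two-sided permutation p was 0.2.

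**Figure D1:**
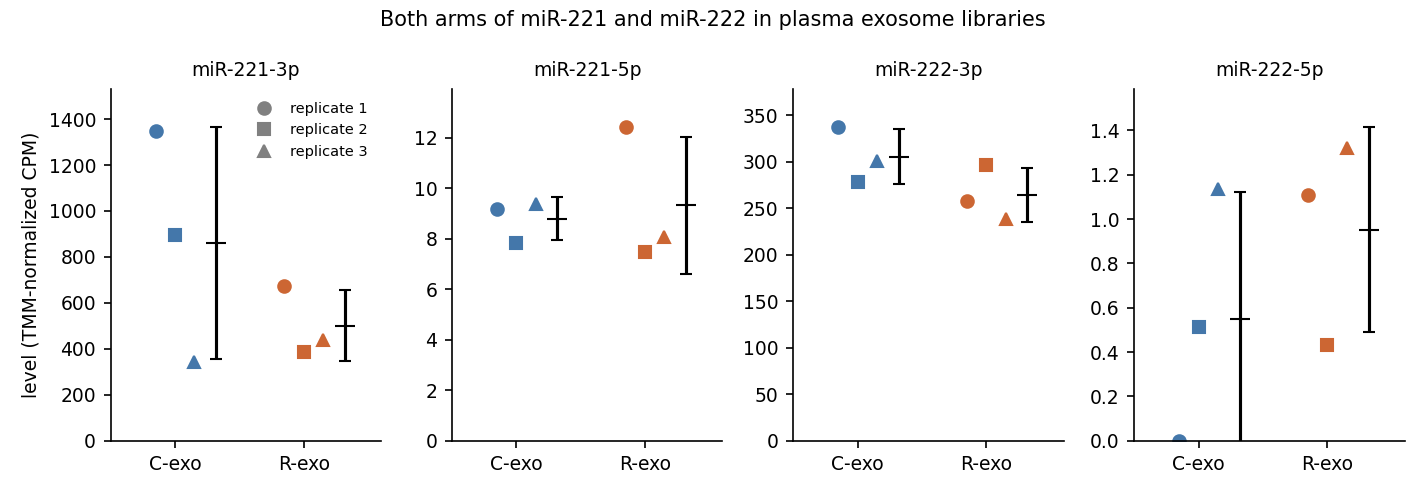
Level of each member in TMM-normalized CPM (y axis, from 0, with its own scale per panel) in the C-exo and R-exo libraries, with a marker shape for each replicate and the group mean ± SD in black. rno-miR-221-3p ran from 341 to 1349 CPM within C-exo, whereas rno-miR-222-3p stayed between 239 and 338 CPM in all 6 libraries.

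The steadiness of rno-miR-222-3p was described against the other tested miRNAs, without a test. The SD of its log2 CPM over the 6 libraries was 0.18, where the median of the 404 tested miRNAs was 0.74, and 5 tested miRNAs had a smaller SD. Of 65 other tested miRNAs within 1 log2 unit of its mean level, 0 had a smaller SD. Scaling by library size alone gave an SD of 0.12, and 1 tested miRNA was then steadier. Counting error alone would give about 0.033. For rno-miR-221-3p the SD was 0.78, above that of 220 of the 404 and close to their median. Of 56 other tested miRNAs within 1 log2 unit of its mean level, 41 had a smaller SD (median 0.64), so it varied more than most miRNAs of similar level.

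**Figure D2:**
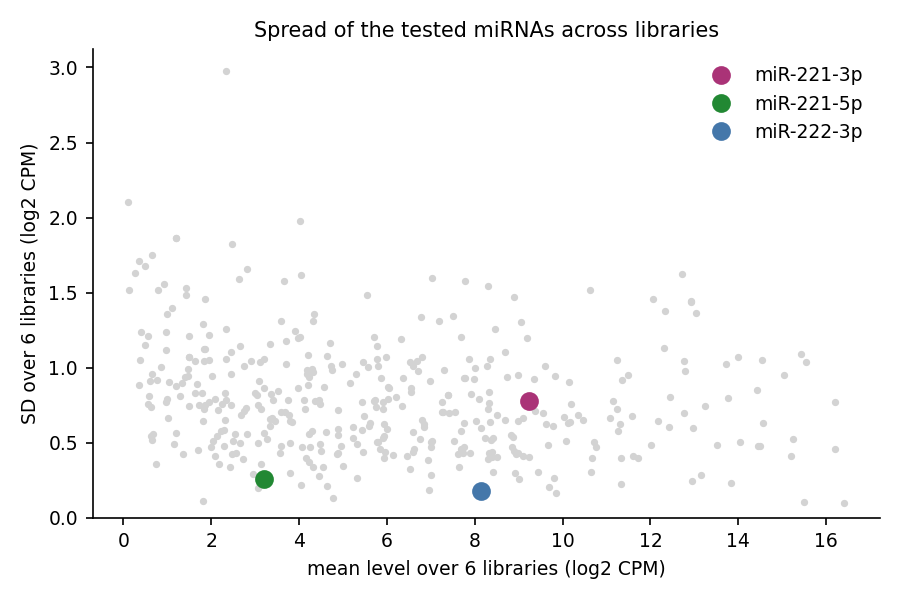
SD of log2 CPM over the 6 libraries (y axis) against mean log2 CPM (x axis) for the 404 tested miRNAs in grey, with the 3 tested members in colour. rno-miR-222-3p (SD 0.18) and rno-miR-221-5p (SD 0.26) lie at the lower edge, and rno-miR-221-3p (SD 0.78) lies in the middle of the cloud.

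The 5p arms were rare. rno-miR-221-5p, the strand opposite to rno-miR-221-3p, was counted 41, 61 and 66 times in the C-exo replicates 1, 2 and 3, and 101, 52 and 61 times in those of R-exo. These counts corresponded to 9.19, 7.81 and 9.39 CPM for C-exo, and to 12.4, 7.47 and 8.05 CPM for R-exo. R-exo replicate 1 was the highest library and R-exo replicate 2 the lowest, so that both ends of the range fell in the same group. The log2 fold change was 0.08 (SE 0.48, 95% interval -0.99 to 1.15, adjusted p = 0.95 by the same edgeR test). It was 0.15 (SE 0.51) without C-exo replicate 3, and its sign turned with the scaling and without R-exo replicate 1. The SD of its log2 CPM was 0.26, and 15 tested miRNAs had a smaller SD. Scaling by library size alone gave an SD of 0.34, where counting error alone would give about 0.19.

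rno-miR-222-5p was at the edge of detection. Its counts were 0, 4 and 8 for the C-exo replicates 1, 2 and 3, a sum of 12, and 9, 3 and 10 for those of R-exo, a sum of 22. It did not pass the filter on low counts and was not tested, and its libraries overlapped between groups. The 0 of C-exo replicate 1 allows a level of up to 0.547 CPM before TMM scaling.

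None of the 3 tested members had an adjusted p under 0.05, where 0% of the 404 tested miRNAs did in edgeR's quasi-likelihood test (38 had an unadjusted p under 0.05). DESeq2, edgeR's exact test and limma-voom also gave 0 at that threshold. The study's criterion is more than a 2-fold change with a p under 0.05, with no adjustment named, and p was taken here as unadjusted. By this criterion 0 of the 3 members were called against 9.41% of the tested miRNAs. Without C-exo replicate 3 it was met by rno-miR-221-3p (unadjusted p = 0.015 in edgeR's quasi-likelihood test) and in all by 182 of the 422 miRNAs then tested (43.1%). C-exo and R-exo were free of overlap in 0 of the 3 members, against 12.9% of the tested miRNAs. When C-exo replicate 3 was left out, rno-miR-221-3p was free of overlap, as were 62.4% of the 404 miRNAs. The median log2 fold change over all tested miRNAs was -0.05.

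Among all 763 miRNAs the order of the members was the same in every library. The median rank by level over the 6 libraries was 87 for rno-miR-221-3p, 117 for rno-miR-222-3p, 290 for rno-miR-221-5p and 425 for rno-miR-222-5p. The first pair of neighbours in this order came close to each other. In C-exo replicate 3 rno-miR-221-3p (341 CPM) exceeded rno-miR-222-3p (301 CPM) by less than the SD of rno-miR-221-3p within either group. Together the 4 members held 0.0609% to 0.138% of the reads of C-exo libraries and 0.0688% to 0.109% of those of R-exo libraries.

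The ratio of 2 members within a library does not depend on how libraries are scaled to each other. Of the reads on both 3p arms, rno-miR-221-3p made up 79.97% in C-exo replicate 1 (Wilson 95% interval 79.1% to 80.9%), 76.3% in replicate 2 (75.4% to 77.2%) and 53.1% in replicate 3 (51.6% to 54.5%). In R-exo the share was 72.4%, 56.5% and 64.9% in replicates 1, 2 and 3. Reads were amplified by PCR without molecular identifiers, so these intervals describe counting error alone. Every library had more rno-miR-221-3p than rno-miR-222-3p, by 1.13 to 3.99 times in C-exo and 1.30 to 2.62 times in R-exo. The groups overlapped in this ratio. The log2 ratio averaged 1.29 ± 0.97 in C-exo and 0.88 ± 0.50 in R-exo (SD, n = 3 each), a difference of -0.40 (exact two-sided permutation p = 0.6). Its size depended on single libraries. Leaving out C-exo replicate 3 made it -0.96 and ended the overlap of the groups (exact two-sided permutation p = 0.2), whereas it was -0.050 without C-exo replicate 1, -0.20 without C-exo replicate 2, -0.66 without R-exo replicate 1 and -0.15 without R-exo replicate 2.

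The share of the 5p arm among all miR-221 reads behaved likewise. It was 0.677% in C-exo replicate 1 (Wilson 95% interval 0.499% to 0.917%), 0.863% in replicate 2 (0.673% to 1.11%) and 2.68% in replicate 3 (2.11% to 3.40%). The R-exo libraries were close together, at 1.81%, 1.90% and 1.80%, and lay between the extremes of C-exo. In reads this was 147, 115 and 36.3 copies of rno-miR-221-3p for each rno-miR-221-5p in C-exo and 54.3, 51.6 and 54.7 in R-exo. The log2 ratio of 3p to 5p had a mean of 6.39 ± 1.07 in C-exo and 5.73 ± 0.048 in R-exo (SD, n = 3 each), a difference of -0.66 (exact two-sided permutation p = 0.4). Without C-exo replicate 3 the difference was -1.27 and the groups no longer overlapped (exact two-sided permutation p = 0.2, the smallest that 2 libraries against 3 allow in this test). Leaving out C-exo replicate 1 or 2 made it smaller, at -0.27 and -0.44.

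**Figure D3:**
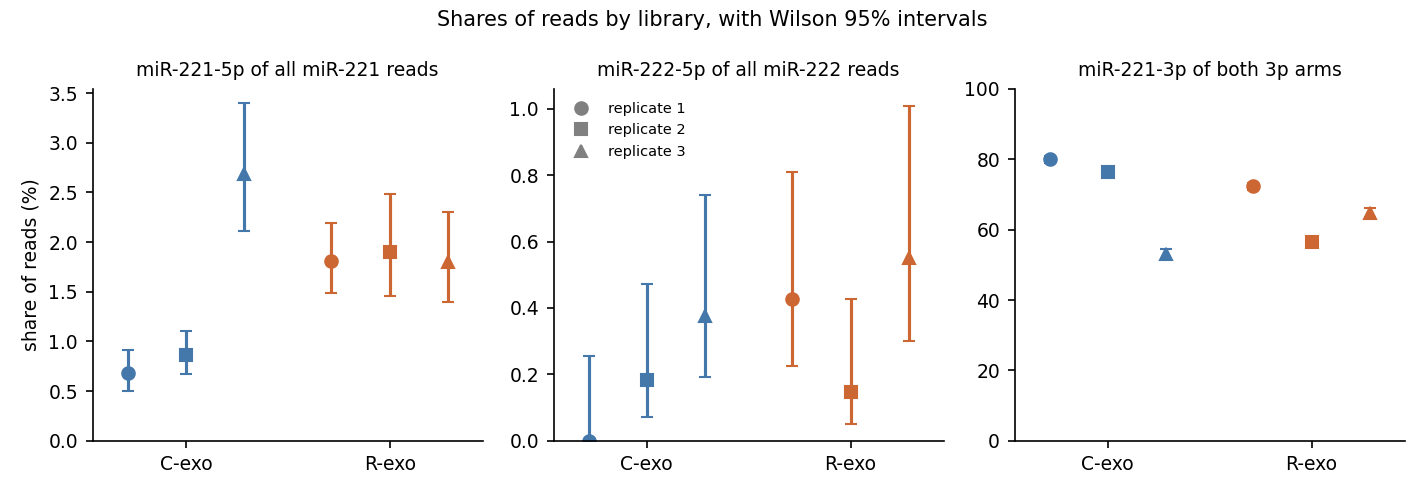
Share of reads (%, y axis) by library for the 5p arm of miR-221, the 5p arm of miR-222 and miR-221-3p among both 3p arms, with Wilson 95% intervals for counting error and a marker shape for each replicate. C-exo replicate 3 lies at the far side of the R-exo libraries from C-exo replicates 1 and 2 in the left and right panels, with 2.68% against 0.677% and 0.863%, and 53.1% against 79.97% and 76.3%.

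The same ratio was computed for all 110 miRNAs whose 3p and 5p arms both passed the filter, to show how common such shifts were. The groups did not overlap in 14.5% of them, and they did overlap for miR-221. Without C-exo replicate 3, where miR-221 no longer overlapped, this share was 63.6%. The range of the log2 ratio over the 6 libraries was wider than that of miR-221 in 58 of the 110. With all 6 libraries, where miR-221 differed by -0.66 between groups, a larger absolute difference was found in 63. For miR-221 itself the difference was -1.27 without C-exo replicate 3. A more unequal use of the arms was found in 26 of the 110, and the range of miR-221 between libraries lay near their middle. Hairpins with an arm below the filter, such as miR-222, were left out. The place of miR-221 therefore holds only among hairpins whose arms both passed.

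miR-222 was still more one-armed, but its 5p counts were too low to follow. The 5p share of miR-222 reads was 0.184% and 0.377% in C-exo replicates 2 and 3 and 0.428%, 0.145% and 0.55% in R-exo replicates 1, 2 and 3. C-exo replicate 1 had 0 of 1507 reads, which allows a share of up to 0.199%. The log2 ratio of 3p to 5p differed by -1.34 between the groups (exact two-sided permutation p = 0.4), and that of rno-miR-221-5p to rno-miR-222-5p by -1.08 (exact two-sided permutation p = 0.5), both with 0.5 added to each count. Both differences rested on the 0 of C-exo replicate 1. Without that library they were -0.30 and -0.079, and with 2 in place of 0.5 added they were -0.76 and -0.51. Without C-exo replicate 3 they were -2.10 and -1.78, and without R-exo replicate 3 the second was -0.71. These 4 ratios were the only ones tested between groups among the members, and each had an adjusted p of 0.6 by Benjamini-Hochberg over the 4 exact permutation tests.

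The miRNAs whose profile over the 6 libraries was most like that of a member were named by the mean absolute difference of their centred log2 CPM. For rno-miR-221-3p they were miR-210-3p, miR-27b-5p, miR-125a-3p, miR-874-3p and miR-139-3p, at 0.14, 0.15, 0.15, 0.15 and 0.16 log2 units, where the median over the tested miRNAs was 0.70. miR-210-3p, the miRNA best known for its induction by hypoxia, reached 373, 182 and 71.8 CPM in the C-exo replicates 1, 2 and 3, against 124, 81.1 and 82.3 CPM in those of R-exo. Like rno-miR-221-3p, each of the 5 was highest in C-exo replicate 1 and second highest in C-exo replicate 2. They were picked by likeness over these same libraries, so the shared order is largely built into the choice. C-exo replicates 1 and 2 were both above the other 4 libraries in 27.5% of the 404 tested miRNAs. By the mean absolute difference, rno-miR-222-3p stood 0.61 from rno-miR-221-3p. Another 161 miRNAs were nearer to rno-miR-221-3p than rno-miR-222-3p was, although both members come from the same primary RNA.

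**Figure D4:**
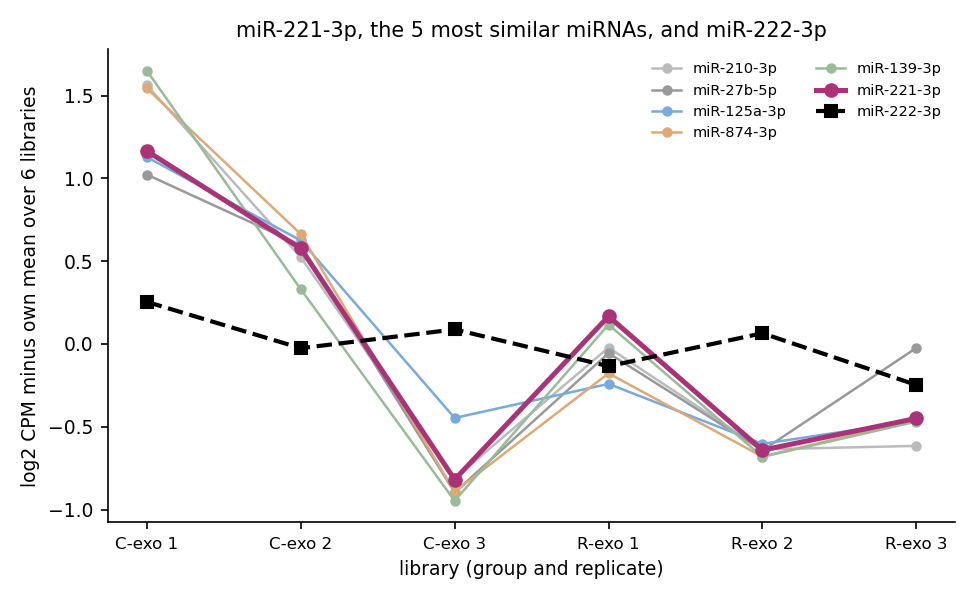
Log2 CPM minus each miRNA's own mean over the 6 libraries (y axis) by library (x axis) for miR-221-3p, the 5 tested miRNAs nearest to it and miR-222-3p; the lines only join the points of a miRNA. The 5 follow miR-221-3p within a mean of 0.14 to 0.16 log2 units, while the dashed line of miR-222-3p stays near 0.

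For rno-miR-222-3p the nearest miRNAs were others with level profiles, namely miR-24-3p, miR-3586-3p, miR-192-5p, miR-20b-3p and miR-181a-5p, at 0.091 to 0.17 log2 units against a median of 0.56. miR-24-3p, one of the most abundant miRNAs of the table, ran from 80623 to 97558 CPM. For rno-miR-221-5p the nearest were miR-146a-5p, miR-22-5p, miR-6319, miR-218a-5p and miR-24-3p, at 0.067 to 0.18 log2 units against a median of 0.60. miR-146a-5p, a miRNA of NF-kB feedback, was highest in R-exo replicate 1 at 12826 CPM, where rno-miR-221-5p was highest too. It was picked by likeness over these libraries, so the shared peak is no separate finding. With 41 to 101 counts of rno-miR-221-5p per library, its counting error alone (about 0.19 log2 units) exceeded the distance of 0.067. rno-miR-222-3p stood 0.23 from rno-miR-221-5p, with 14 other miRNAs nearer.

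Other miRNAs of the vessel wall were set beside the cluster, and all 21 of a list of endothelial and smooth muscle miRNAs were tested. Of these 15 had a log2 fold change above 0 and 6 below, with a median of 0.33 (range -1.12 to 1.92) against -0.05 over all tested miRNAs. By the study's criterion 2 of the 21 were called, both higher in R-exo, a share close to the 9.41% of all tested miRNAs, and 0 of 21 had an adjusted p under 0.05 in edgeR's quasi-likelihood test. They were miR-126a-3p, which supports VEGF signalling in endothelium (log2 fold change 1.34, SE 0.52), and miR-132-3p, which is induced by CREB (1.54, SE 0.64). miR-132-3p was rare, at 2.69, 1.41 and 4.98 CPM in the C-exo replicates and 10.8, 10.5 and 5.15 CPM in those of R-exo. Leaving out C-exo replicate 3, the criterion called 12 of the 21, 10 higher and 2 lower in R-exo, against 43.1% of all tested miRNAs. The lists were chosen with earlier results of these data known, so their direction is a description.

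Markers of cells that shed vesicles into plasma were compared with the libraries in which rno-miR-221-3p was highest, C-exo replicates 1 and 2. The members of a list did not all follow the same pattern. The summed level of 4 red cell miRNAs reached 198092 and 92404 CPM in these libraries, while the other 4 held 44540 to 74966 CPM. Almost all of this sum was miR-486, at 195813 and 89951 CPM against 40879 to 68039 CPM.

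The other 3 red cell miRNAs were not higher there. miR-144-5p had 44.6 and 21.5 CPM against 83.4 to 215 CPM, miR-144-3p 212 and 181 CPM against 191 to 472 CPM, and miR-451-5p 2023 and 2250 CPM against 2060 to 6239 CPM. By the study's criterion 2 of the 4 red cell miRNAs were called, miR-144-3p and miR-144-5p, both higher in R-exo, where 9.41% of all tested miRNAs were called. None of the 4 had an adjusted p under 0.05 in edgeR's quasi-likelihood test (0.46 for both arms of miR-144), and 3 of the 4 had a log2 fold change above 0. The criterion also called miR-486, lower in R-exo, when C-exo replicate 3 was left out and 43.1% of all tested miRNAs were called.

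The sum of 4 platelet and leukocyte miRNAs was low in C-exo replicates 1 and 2, at 5001 and 3553 CPM, against 11449 to 26861 CPM in the others. It was carried by miR-142-5p, at 2444 and 2321 CPM against 8892 to 24670 CPM. miR-223-3p, a myeloid miRNA, was highest in C-exo replicate 1 at 793 CPM, with 428 CPM in C-exo replicate 2 and 334 to 576 CPM in the others. miR-150-5p, a lymphocyte miRNA, had 1213 and 503 CPM against 1004 to 1833 CPM, and miR-142-3p 550 and 301 CPM against 359 to 965 CPM. The criterion called 0 of these 4, against 9.41% of all tested miRNAs, and a list of 4 is too short to read this as a difference. It called 1 without C-exo replicate 3, miR-142-5p, higher in R-exo, against 43.1% of all. The endothelial pair miR-126a-3p and miR-126a-5p summed to 4723 and 7337 CPM in those 2 libraries and to 16773 to 30334 CPM in the others. Both arms were lower in C-exo replicates 1 and 2 than in the other 4 libraries, as were 30.4% of the 404 tested miRNAs.

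Smooth muscle miR-143-3p and miR-145-5p summed to 11012, 43198 and 55682 CPM in C-exo and to between 42834 and 88064 CPM in R-exo. Nearly all of this sum was miR-143-3p. The opposite arm, miR-143-5p, was highest in C-exo replicates 1 and 2, at 104 and 270 CPM against 49.5 to 88.8 CPM in the others (log2 fold change -0.86, SE 0.60, adjusted p = 0.51 in edgeR). miR-145-3p had the lowest of its 6 values in C-exo replicate 1 (376 CPM) and the highest in C-exo replicate 2 (1457 CPM), with a log2 fold change of -0.17. These arms, from the vessel wall list, were singled out after their values were seen. The 2 liver miRNAs summed to between 28296 and 67055 CPM in C-exo and between 28774 and 35625 CPM in R-exo, nearly all of it miR-122-5p. The sum of 7 striated muscle miRNAs was 2151 to 9821 CPM for C-exo and 1805 to 5972 CPM for R-exo. Its highest value was carried by miR-1-3p, which had 308, 1146 and 7111 CPM in C-exo replicates 1, 2 and 3. miR-133a-3p had 1027, 1239 and 868 CPM in these libraries. It was lowest in replicate 3 among them, as was miR-133b-3p. Every marker of the cell type lists had counts in some library, and miR-122-3p and miR-208a-3p had 0 in C-exo replicate 1, as did miR-34a-5p of the vessel wall list. The part of these cell types in the level of rno-miR-221-3p was not tested.

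**Figure D5:**
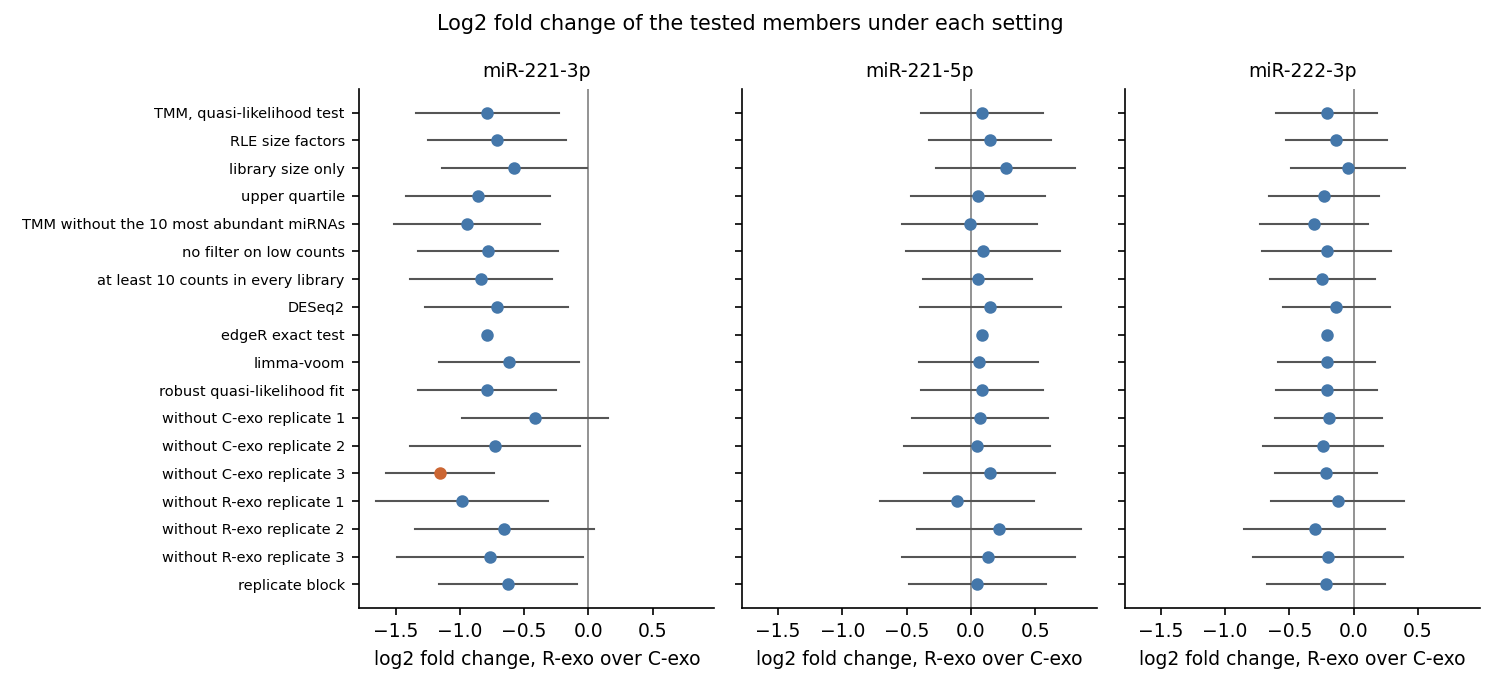
Log2 fold change of R-exo over C-exo (x axis) for the 3 tested members under each setting (y axis), with bars of 1 standard error where the method gives one and an adjusted p under 0.05 in orange. rno-miR-221-3p lies below 0 throughout, from -1.16 to -0.42, and is orange only without C-exo replicate 3, while rno-miR-221-5p lies around 0 and rno-miR-222-3p lies between -0.31 and -0.04.

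In the 11 alternatives with all 6 libraries, rno-miR-221-3p had a log2 fold change between -0.94 and -0.58 (adjusted p between 0.42 and 0.64 in edgeR, DESeq2 or limma) and rno-miR-222-3p had values between -0.31 and -0.04 (adjusted p between 0.69 and 0.96 in the same tools). For both 3p arms the direction was the same in each of these fits and in each of the 6 fits that left out a library.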

How the data were processed

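Small RNA libraries were made from plasma exosome RNA of 3 C-exo and 3 R-exo samples and sequenced by HiSeq. The deposited values are raw counts of reads for each of 763 mature rat miRNAs, without normalization. Whether RNA of several rats was pooled for a library is not given in the sources used here. The submitters' processing notes name bcl2fastq, BWA and the build rn6. Trimming, the reference set of miRNAs and the rule for reads with several matches are not given in the sources used here. Total counts were 5484209 to 7531737 per library. No libraries were merged, since each pair differed by more than sampling noise, which does not show that they came from separate animals.

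miRNAs were kept by filterByExpr (minimum count 10, minimum total 15), which left 404 of 598 with any count. R-exo was compared with C-exo in R 4.3.3 by edgeR 4.0.16 (TMM, quasi-likelihood test, Benjamini-Hochberg over the 404). Alternatives used DESeq2 1.42.0, limma 3.58.1 and other scalings, filters and libraries. log2 CPM had a prior count of 2 and ratios a pseudocount of 0.5. Single values were compared by an exact two-sided permutation test (scipy 1.17.1). The code was also run on simulated counts, but no result given here rests on that run. Besides the 4 members, the text names the 5 tested miRNAs nearest to each tested member, the vessel wall miRNAs past the study's criterion and the cell type markers. The members and lists were chosen with earlier results of these data known. Sequences came from RefSeq (GRCr8), where all 4 members matched by name. The sources give no sequencing batch.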

Additional observations from a re-analysis of the deposited data

How the results depend on the processing

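The 3p arms kept their direction under every alternative. rno-miR-221-3p passed an adjusted p of 0.05 only without C-exo replicate 3, with a log2 fold change of -1.16, and leaving out each library in turn gave -1.16 to -0.42. For rno-miR-221-5p the log2 fold change turned to -0.011 with TMM without the 10 most abundant miRNAs, and to -0.11 without R-exo replicate 1 (range -0.11 to 0.22 with each library left out). The cause was not tested. rno-miR-222-5p, tested only without the filter, changed by 0.72 on the log2 scale (SE 1.17, adjusted p = 0.81 in edgeR). The 4 ratios kept their sign with 2 in place of 0.5 added to each count and with each library left out, but their sizes moved by more than 1.5 times, as given with each ratio.

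The share of tested miRNAs with an adjusted p under 0.05 was 0% to 31.3% with each library left out, 31.3% being that without C-exo replicate 3, and 0% under the alternatives that kept 6 libraries. By the study's criterion 38 miRNAs were called, 63 without the filter, and 15 to 182 with each library left out (15 without C-exo replicate 1 or R-exo replicate 3, 16 without R-exo replicate 2, 18 without C-exo replicate 2 and 182 without C-exo replicate 3). Of the 38, 8 were higher in R-exo, against 18 of 33 with library size only, 12 of 37 with RLE size factors, 27 of 49 with limma-voom and 27 of 63 without the filter. Library size only moved the median log2 fold change of all tested miRNAs from -0.05 to 0.10. Relative to it rno-miR-221-3p stayed lower.

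In a fit blocked by replicate number (replicate block) the log2 fold changes were -0.63, 0.05 and -0.21 for rno-miR-221-3p, rno-miR-221-5p and rno-miR-222-3p, and no call changed. Of 38 miRNAs then called by the criterion, 25 were higher in R-exo. The deviations of same-numbered libraries correlated at 0.33, -0.28 and 0.28 across miRNAs, so the numbers were not taken to pair the libraries. Counts under 11 limit what can be said of rno-miR-222-5p.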
